A study of Mus musculus with 3 samples.

Results

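The genes described here are 9 core components of transforming growth factor beta (TGF-beta) signalling in mouse: the ligands Tgfb1, Tgfb2 and Tgfb3, the receptors Tgfbr1, Tgfbr2 and Tgfbr3, and the intracellular SMAD proteins Smad2, Smad3 and Smad4. They were chosen by name, and all 9 were found by symbol among the 54532 genes of the deposited tables. RNA came from cells of the dura mater (the tough outermost covering of the brain) that lack CD45 (a leukocyte protein) and carry CD31 (an endothelial protein) and podoplanin, a combination used to select lymphatic endothelium. All mice bore 4T1-DM cells, a model of metastasis to the dura made with 4T1, a mouse mammary carcinoma line. A group received PBS, another ZOL, and the last ZOL+Ang2; the labels spell out none of these names. Dura was taken 12 days after inoculation, and cells of 6 mice were pooled into 1 library per group, so the 3 libraries have no replicates and no test was possible. No strain, genotype, age or dose, nor the source of Ang2, is given in the sources used here, and no group lacked 4T1-DM cells. Every difference below is a difference between libraries, not a treatment effect measured over animals.

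TGF-beta ligands are secreted in a latent form, bound to their own propeptide and to matrix proteins, and act only once freed. The active ligand binds Tgfbr2, a type II receptor kinase, which phosphorylates the type I receptor kinase Tgfbr1, while Tgfbr3 (betaglycan) presents ligand to the kinases. Tgfbr1 phosphorylates Smad2 and Smad3, which join Smad4 and regulate transcription in the nucleus. In endothelium the type I receptor Acvrl1 and the co-receptor Eng form a second branch through Smad1 and Smad5, and in lymphatic endothelial cells TGF-beta is known to lower lymphatic identity genes.

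Depth and content differed widely between the libraries. PBS had 1675532 recovered reads on genes, ZOL 16586760 and ZOL+Ang2 9204901, and 1 read was worth 0.538, 0.0637 and 0.114 CPM (reads scaled to library size). Satellite-type repeat models took 22.1%, 1.07% and 3.51% of reads, and mitochondrially encoded genes took 12.1%, 1.52% and 1.19%, in the same order. Of 16 endothelial markers all had reads in each library, with summed levels of 4883, 6099 and 2340 CPM, but Pecam1, the gene of CD31, stood at 1.08 CPM (2 reads) in PBS against 475 and 177 CPM. Pdpn, the gene of podoplanin, stood at 18.8, 67.5 and 171 CPM, and Ptprc, the gene of the excluded CD45, at 156, 25.1 and 76.1 CPM. Of the lymphatic markers, 9 of 10 were found by name and summed to 293, 241 and 274 CPM. The defining gene Lyve1 had 0 reads in each library, and Prox1 had 2 reads in PBS and 0 in the others. Markers of other cells also moved: the sum of 10 fibroblast markers was 458, 1012 and 11825 CPM, and that of 8 mural (smooth muscle and pericyte) markers 2.69, 840.2 and 361 CPM. That of 12 macrophage and neutrophil markers was 1322, 129.8 and 2332 CPM. The sum of 10 mammary carcinoma and epithelial markers was 644, 6338 and 6337 CPM. The sum of 6 erythroid markers was 190.5, 7.20 and 25164.5 CPM, the largest of these sums in ZOL+Ang2. Those of 8 lymphocyte markers (271, 0.573 and 0 CPM), 6 proliferation markers (84.0, 1274 and 761 CPM) and 9 bone markers (1051, 3383 and 7684.5 CPM) differed too. The part of these differences in the results below was not tested, and in bulk RNA fewer cells of a type and less RNA per cell cannot be told apart.

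Transcripts of the ligands were found mainly in the ZOL library. Tgfb3 (ENSMUSG00000021253; chromosome 12, 86056745 to 86079041) had 801 reads in ZOL, or 51.0 CPM, and 0 in both PBS and ZOL+Ang2. Tgfb2 (ENSMUSG00000039239; chromosome 1, 186622792 to 186705989) had 0, 291 and 4 reads in the order PBS, ZOL, ZOL+Ang2, or 0, 18.5 and 0.456 CPM. Tgfb1 (ENSMUSG00000002603; chromosome 7, 25687002 to 25705077), the ligand best known from immune cells and platelets, had 0, 0 and 34 reads, or 3.88 CPM in ZOL+Ang2. So PBS held no ligand read at all, ZOL held Tgfb2 and Tgfb3 without Tgfb1, and ZOL+Ang2 held Tgfb1 with a trace of Tgfb2. A count of 0 is set against a floor of 3 reads, which the PBS library puts at 1.61 CPM, ZOL at 0.191 CPM and ZOL+Ang2 at 0.342 CPM. Against that floor, Tgfb3 was at least 31.6-fold higher in ZOL than in PBS and at least 149-fold lower in ZOL+Ang2 than in ZOL. Tgfb2 was at least 11.5-fold higher in ZOL than in PBS, and 40.6-fold lower in ZOL+Ang2 than in ZOL (95% counting interval 15.7 to 150.2, from 4 reads). Tgfb1 was at least 20.3-fold higher in ZOL+Ang2 than in ZOL, but only at least 2.40-fold higher than in the shallow PBS library. Beside these values, the mural markers had their highest sum in ZOL, most of it from Acta2; without it, a choice made after the values were seen, the other 7 summed to 0, 171 and 253 CPM, and from ZOL to ZOL+Ang2 2 mural markers were higher and 2 lower. Also beside them, the macrophage and neutrophil markers summed to 1322, 129.8 and 2332 CPM, and so were high in PBS as well, where Tgfb1 had 0 reads. Of 6 platelet markers, 5 had 0 reads in both ZOL and ZOL+Ang2, and Pf4 was highest in PBS, at 30.7, 2.42 and 21.2 CPM. Whether Tgfb1 follows any of these cells was not tested.

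Reads of all 3 receptors were found in every library, but in different proportions, and Tgfbr2 in PBS lay under the floor of 3 reads. Tgfbr2 (ENSMUSG00000032440; chromosome 9, 116084293 to 116175360), without which the ligands cannot signal through Tgfbr1, had 2, 2024 and 2106 reads in the 3 libraries in that order, or 1.08, 129 and 240.1 CPM. Tgfbr1 (ENSMUSG00000007613; chromosome 4, 47353222 to 47414931) went the other way, with 91, 139 and 133 reads, or 49.0, 8.85 and 15.2 CPM. Tgfbr3 (ENSMUSG00000029287; chromosome 5, 107106570 to 107289629) had 172, 625 and 535 reads, or 92.6, 39.8 and 61.0 CPM. The type II receptor was thus nearly missing from the PBS library, where the type I receptor and the co-receptor stood at their highest levels. Between ZOL and PBS, Tgfbr2 was 119.8-fold higher (33.1 to 989.8), a ratio whose width comes from the 2 PBS reads, Tgfbr1 was 5.53-fold lower (4.20 to 7.26) and Tgfbr3 2.32-fold lower (1.95 to 2.76). Between ZOL+Ang2 and ZOL the receptors differed less, and each was higher in ZOL+Ang2: Tgfbr1 by 1.71-fold (1.34 to 2.19), Tgfbr2 by 1.86-fold (1.75 to 1.98) and Tgfbr3 by 1.53-fold (1.36 to 1.72). Between ZOL+Ang2 and PBS, Tgfbr2 was 223-fold higher (61.7 to 1844), Tgfbr1 3.23-fold lower (2.45 to 4.25) and Tgfbr3 1.52-fold lower (1.27 to 1.80).

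The 3 SMAD genes were all lowest in PBS. Smad2 (ENSMUSG00000024563; chromosome 18) had 82, 3157 and 1044 reads, or 44.1, 201 and 119 CPM in the same order. Smad3 (ENSMUSG00000032402; chromosome 9, 63646767 to 63757994) had 0, 477 and 328 reads, or 0, 30.4 and 37.4 CPM. Smad4 (ENSMUSG00000024515; chromosome 18), the shared partner of Smad2 and Smad3 and of the Smad1 branch, had 2, 367 and 679 reads, or 1.08, 23.4 and 77.4 CPM. The order of ZOL and ZOL+Ang2 differed by gene: Smad2 was highest in ZOL, Smad4 in ZOL+Ang2, and Smad3 was close in both. In ZOL against PBS, Smad2 was 4.56-fold higher (3.66 to 5.75), Smad3 at least 18.8-fold higher and Smad4 21.7-fold higher (5.97 to 180.0, from 2 PBS reads). From ZOL to ZOL+Ang2, Smad2 was 1.69-fold lower (1.57 to 1.81), Smad3 1.23-fold higher (1.07 to 1.42) and Smad4 3.31-fold higher (2.91 to 3.77). From PBS to ZOL+Ang2, Smad2 was 2.70-fold higher (2.15 to 3.42), Smad3 at least 23.2-fold higher and Smad4 71.9-fold higher (19.8 to 595).

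**Figure D1:**
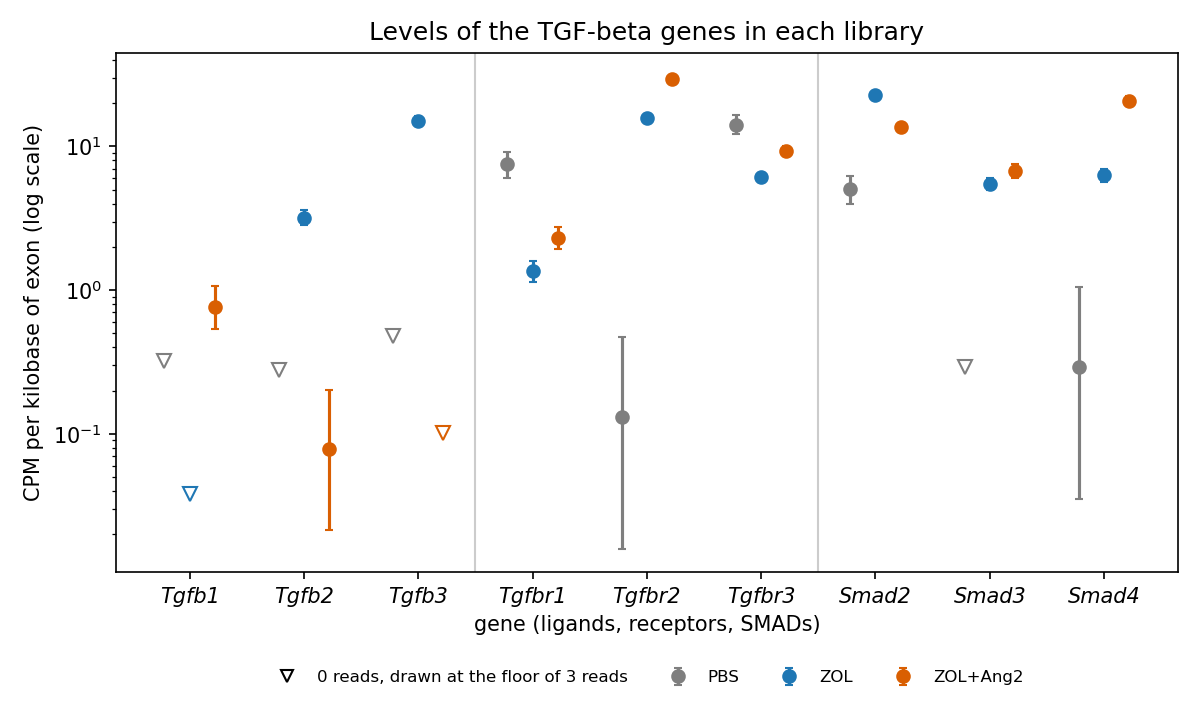
Level of each gene in CPM per kilobase of exon (log scale) in the PBS, ZOL and ZOL+Ang2 libraries, 1 point per library, with bars for 95% counting intervals and open triangles for genes with 0 reads, drawn at the floor of 3 reads. Tgfb2, Tgfb3, Tgfbr2, Smad3 and Smad4 lie near or at the bottom in PBS, while Tgfbr1 and Tgfbr3 are highest there.

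Promoters are shown for 3 genes that were at 0 to 2 reads in PBS and present in ZOL (Tgfb2, Tgfbr2 and Smad3) and for Tgfbr1, which was highest in PBS. Of the 9 genes, 5 had an entry among the RefSeq promoters of build GRCm38.p6, and Tgfb1 is the one not printed here. Each line gives the 250 bases before the gene's start, 5′ to 3′ on the gene's strand, with the following motifs in capitals wherever they occur on either strand: TATAAA (the TATA box core), CACGTG (an E-box), GGGCGG (the GC box core) and CAGAC (a sequence that SMADs can bind). For Tgfbr1 the earlier of its 2 listed starts is shown.
Tgfb2, chr1:186705990-186706239, strand minus: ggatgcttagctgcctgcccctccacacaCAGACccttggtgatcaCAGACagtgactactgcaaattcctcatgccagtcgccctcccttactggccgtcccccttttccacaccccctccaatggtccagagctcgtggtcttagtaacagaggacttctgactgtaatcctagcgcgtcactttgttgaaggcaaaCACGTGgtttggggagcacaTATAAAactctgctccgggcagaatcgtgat
Tgfbr2, chr9:116175364-116175613, strand minus: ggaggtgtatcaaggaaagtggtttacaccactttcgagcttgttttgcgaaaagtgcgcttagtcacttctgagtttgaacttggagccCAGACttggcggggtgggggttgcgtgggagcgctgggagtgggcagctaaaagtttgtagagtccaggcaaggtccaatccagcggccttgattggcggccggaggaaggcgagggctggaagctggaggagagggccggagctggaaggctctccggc
Smad3, chr9:63757995-63758244, strand minus: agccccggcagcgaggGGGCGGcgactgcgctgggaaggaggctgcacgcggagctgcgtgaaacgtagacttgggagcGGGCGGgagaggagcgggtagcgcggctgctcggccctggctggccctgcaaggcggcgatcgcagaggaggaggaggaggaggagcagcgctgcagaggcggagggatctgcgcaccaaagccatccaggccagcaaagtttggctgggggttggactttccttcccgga
Tgfbr1, chr4:47352972-47353221, strand plus: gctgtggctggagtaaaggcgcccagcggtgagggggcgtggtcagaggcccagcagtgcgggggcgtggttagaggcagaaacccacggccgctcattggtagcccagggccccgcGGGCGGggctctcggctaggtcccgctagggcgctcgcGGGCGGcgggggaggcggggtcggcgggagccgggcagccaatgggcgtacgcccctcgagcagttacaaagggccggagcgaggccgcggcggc
The sequences differ in kind. Tgfb2 has a TATAAA that begins 31 bases before the start, a CACGTG at 51 bases and 2 CAGAC matches, and a GC content of 53.6%. Tgfbr2 has 1 CAGAC and none of the other 3 motifs, with 58.4% GC. Smad3 and Tgfbr1 each have 2 GGGCGG matches and no TATAAA, with 69.2% and 74.8% GC, and so Tgfbr1 resembles Smad3 in these letters although their levels went opposite ways. Among all 32851 RefSeq mouse promoter windows of that length, 12.4% hold TATAAA, 6.02% CACGTG, 32.7% GGGCGG and 42.2% CAGAC, and the median GC content is 52.4%. The last motif searched, the AP-1 sequence TGANTCA, is in 6.75% of windows and in none of those printed. CAGAC was in the windows of Tgfb2 and Tgfbr2, and none of the motifs was in all 3 printed genes with 0 to 2 reads in PBS. The unprinted window of Tgfb1, also at 0 reads in PBS, holds 5 GGGCGG matches and none of the other motifs. A match describes letters and does not show that a factor binds.

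Levels of different genes can be compared only per length, in CPM per kilobase of exon. For PBS, ZOL and ZOL+Ang2 the ligands summed to 0, 18.3 and 0.848, the receptors to 21.8, 23.2 and 41.0, and the SMADs to 5.32, 34.7 and 41.2. The receptor sum differed little between PBS and ZOL on this scale, but on the deposited RPKM scale it was 36.1, 15.4 and 30.6, while its make-up turned over on both. In PBS the order was Tgfbr3 (14.1 CPM per kilobase), Tgfbr1 (7.49), Smad2 (5.03), Smad4 (0.290) and Tgfbr2 (0.131), and Smad4 and Tgfbr2, with 2 reads each, did not differ beyond counting error. In ZOL it was Smad2 (22.9), Tgfbr2 (15.7), Tgfb3 (15.1), Smad4 (6.30), Tgfbr3 (6.08), Smad3 (5.48), Tgfb2 (3.20) and Tgfbr1 (1.36). There, Tgfbr2 and Tgfb3 did not differ beyond counting error, nor did Smad4 and Tgfbr3, nor Tgfbr3 and Smad3. In ZOL+Ang2 it was Tgfbr2 (29.3), Smad4 (20.9), Smad2 (13.6), Tgfbr3 (9.32), Smad3 (6.75), Tgfbr1 (2.32), Tgfb1 (0.769) and Tgfb2 (0.0788), and each neighbour differed beyond counting error.

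Ratios within a library do not depend on the scaling between libraries, and several of them differed between libraries. Per length, Tgfbr2 stood at 0.0175 times Tgfbr1 in PBS (95% counting interval 0.00209 to 0.0652), 11.6 times in ZOL (9.78 to 13.9) and 12.6 times in ZOL+Ang2 (10.6 to 15.2). So the type I receptor was the more abundant kinase transcript in PBS and the type II receptor in the others, where the intervals of the ratio overlap. Tgfbr3 stood at 1.89 times Tgfbr1 in PBS (1.46 to 2.46), 4.49 times in ZOL (3.73 to 5.43) and 4.02 times in ZOL+Ang2 (3.32 to 4.89). Smad4 stood at 0.0577 times Smad2 in PBS (0.00687 to 0.215), 0.275 times in ZOL (0.246 to 0.306) and 1.54 times in ZOL+Ang2 (1.39 to 1.70), the only library in which the common SMAD exceeded Smad2. Smad2 stood at 4.18 times Smad3 in ZOL (3.79 to 4.61) and 2.01 times in ZOL+Ang2 (1.77 to 2.28).

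How far such differences stand out depends on how many genes differed. Of the 9 genes, 7 reached a mean of 10 CPM over the libraries and were counted, and Tgfb1 and Tgfb2 did not. A gene was counted as higher or lower where the ratio of CPM, each raised by 5 CPM, was at least 2-fold, and a gene that reached the mean through 1 library, such as Tgfb3, had to differ. In ZOL against PBS 5 were higher (Tgfbr2, Tgfb3, Smad3, Smad4 and Smad2) and 2 lower (Tgfbr1 and Tgfbr3), where 49.2% of the 10942 genes compared were higher and 29.4% lower, so that 78.7% passed in either direction. For ZOL+Ang2 against ZOL, 1 was higher (Smad4) and 1 lower (Tgfb3), where 16.2% of genes were higher, 24.8% lower and 41.0% either. In ZOL+Ang2 against PBS 4 were higher (Tgfbr2, Smad4, Smad3 and Smad2) and 1 lower (Tgfbr1), where 44.2% were higher, 33.1% lower and 77.3% either. Since most genes passed 2-fold in both comparisons with PBS, these counts say nothing particular to the TGF-beta genes. The 3 comparisons share their libraries, and a low value in PBS enters both comparisons with it.

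**Figure D2:**
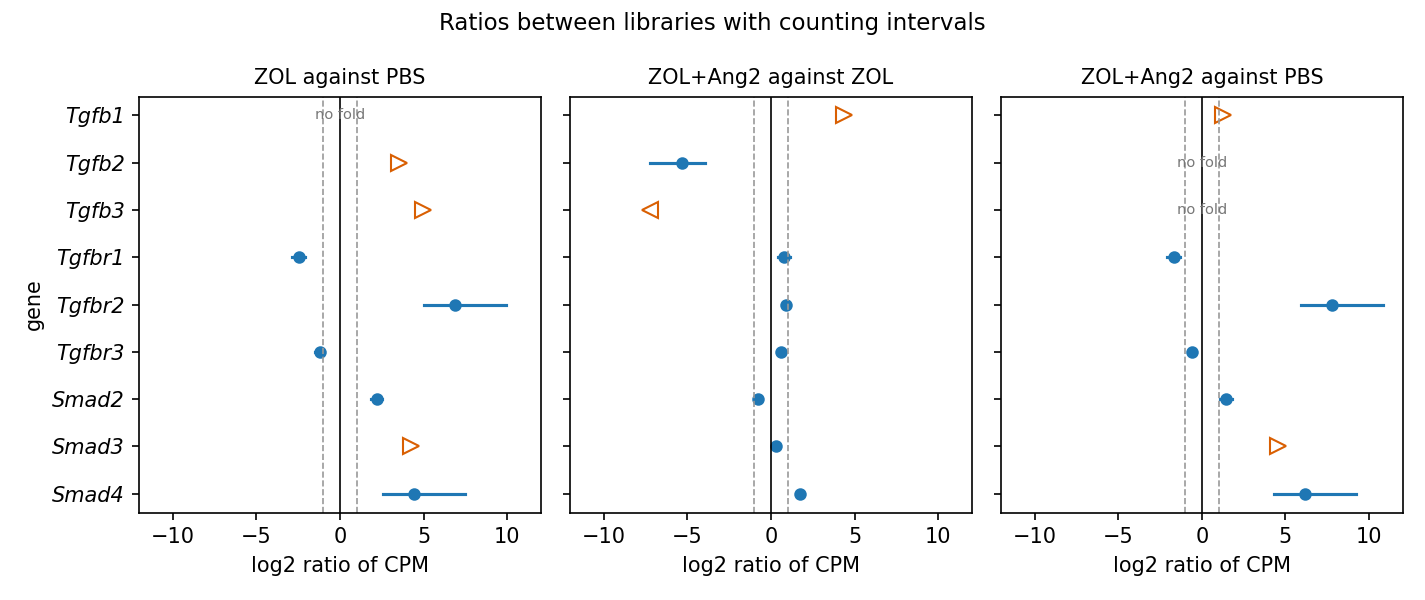
Log2 ratio of CPM for each gene in the 3 comparisons; filled points are ratios with 95% counting intervals, open triangles are lower bounds of the size of the difference where 1 library had 0 reads, and dashed lines mark 2-fold. Tgfbr1 and Tgfbr3 lie left of 0 in both comparisons with PBS, and ZOL+Ang2 against ZOL holds the only values beyond 2-fold to the left for ligands.

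The scaling matters in comparisons with PBS, because over all genes compared the median log2 difference was itself 0.94 for ZOL and 0.48 for ZOL+Ang2, and -0.02 between the latter libraries. Relative to that median, and over 6 ways of scaling, Tgfbr2 was 3.52 to 4.57 higher on the log2 scale in ZOL than in PBS, Tgfb3 2.55 to 3.79, Smad3 1.88 to 3.16, Smad4 1.28 to 2.43 and Smad2 1.13 to 1.66. Tgfbr1 was -2.90 to -2.15 and Tgfbr3 -2.06 to -1.50 on the same measure. All 7 kept their direction there, and likewise in ZOL+Ang2 against ZOL. For ZOL+Ang2 against PBS, 6 of 7 did, the exception being Tgfb3, which had 0 reads in both. A change of scaling shifts that median along with each gene and so largely cancels in this measure. Keeping direction on it was therefore mostly fixed in advance. Against the unshifted scale, Smad2 in ZOL against PBS (log2 2.07) was within 2-fold with the deposited RPKM (0.83), and in ZOL+Ang2 against PBS (1.34) it was within 2-fold with median-of-ratios scaling (0.71), with RPKM (0.27) and at equal depth (0.77). Tgfbr3 in ZOL+Ang2 against PBS, within 2-fold at -0.56, passed it with median-of-ratios scaling (-1.20), RPKM (-1.65) and at equal depth (-1.29). Tgfbr2 in ZOL+Ang2 against ZOL (0.87) passed 2-fold with median-of-ratios scaling (1.06) and RPKM (1.03).

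Counts of 0 were frequent in these amplified libraries, so those of the TGF-beta genes were set against other genes of the same level. At its ZOL level, Tgfb3 would have had 94.8 PBS reads and 447 ZOL+Ang2 reads. Of the 4512 genes within 2-fold of that level in ZOL, 31.1% had 0 reads in PBS, and 11.5% had 0 in ZOL+Ang2. At the level of Tgfb2, 34.4 reads would fall in PBS, where 42.8% of such genes had 0. In ZOL+Ang2, 162.6 reads would fall, and 30.7% of such genes had as few as the 4 seen. At the level of Smad3, 56.5 reads would fall in PBS, where 37.5% of such genes had 0. Tgfbr2 would have had 239.6 reads in PBS, and 30.6% of genes of its level had 2 or fewer. For Smad4 the values were 43.4 reads and 52.6%. From their ZOL+Ang2 levels, the values were 446 reads and 20.8% for Tgfbr2, and 143.9 reads and 39.8% for Smad4. Tgfb1 would have had 60.9 reads in ZOL at its ZOL+Ang2 level, where 32.9% of such genes had 0, and 7.20 in PBS, where 47.2% had 0. Counts as low as these in PBS were thus shared by 20.8% to 52.6% of genes of the same level, and the 0 of Tgfb3 in ZOL+Ang2 by 11.5%. The floor of 3 reads covers counting error and not loss of transcripts before amplification.

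**Figure D3:**
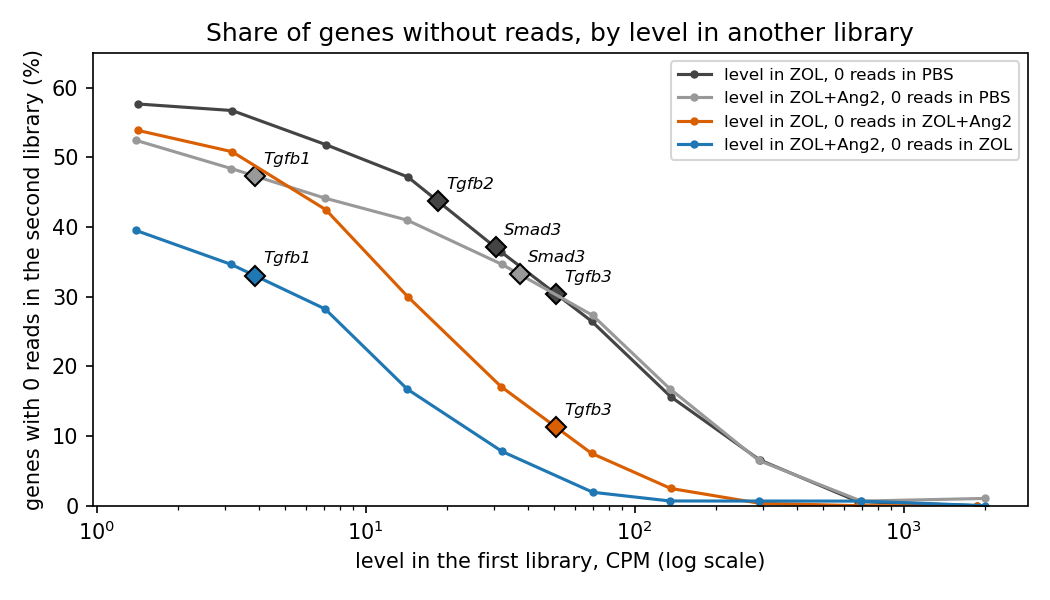
Share of genes with 0 reads in a second library (percent) against their level in the first library (CPM, log scale), for 4 pairs of libraries; diamonds mark TGF-beta genes with 0 reads in the second library, placed at their own level on the line for that pair. The line from ZOL to ZOL+Ang2 lies below that from ZOL to PBS, and Tgfb3 sits at 11.5% on the former and 31.1% on the latter by its own window of levels.

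Genes of latency and activation, whose products store TGF-beta in the matrix and free it, were mostly higher in both ZOL libraries than in PBS. Of 14 measured, 10 were higher in ZOL than in PBS and 2 were lower (median log2 difference 3.04, or 3.79 with genes at 0 reads set to their bound, against 0.94 over all genes). Ltbp3, a latent TGF-beta binding protein, stood at 0, 296 and 349 CPM, and Ltbp2, which is related but is not known to bind latent TGF-beta, at 1.08, 184 and 140.3 CPM. Itgb1, the beta1 integrin chain, stood at 32.8, 424 and 648 CPM, or 12.9-fold higher in ZOL than in PBS (10.03 to 16.9). The 2 lower genes were Itgb8, a chain of a TGF-beta-activating integrin, at 39.8, 3.38 and 7.30 CPM, and Fbn1 (fibrillin-1, to which latent complexes attach) at 73.7, 20.2 and 317 CPM. Between ZOL and ZOL+Ang2, 1 of 14 was higher and 4 were lower (median -0.12 against -0.02). Fbn1 was the higher one, by 15.7-fold (14.0 to 17.7). Among all genes compared, 49.2% were higher and 29.4% lower in ZOL than in PBS, and 16.2% and 24.8% in ZOL+Ang2 than in ZOL. Lrrc32 (GARP, which holds latent TGF-beta on the cell surface) had 6, 681 and 1 reads, and was 380.4-fold lower in ZOL+Ang2 than in ZOL (68.1 to 15048). Lrrc32 reached the mean of 10 CPM through ZOL alone, so it had to count in both comparisons. Itgb6, another activating chain, had 21, 406 and 0 reads, and was at least 75.6-fold lower.

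Receptors of the related branches differed in both directions between ZOL and PBS. Of 6 measured co-receptors and related receptors, 2 were higher and 3 lower in ZOL than in PBS (median -0.08 against 0.94 over all genes). In ZOL+Ang2 against ZOL 0 were higher and 3 lower (median -0.79 against -0.02). The shares of all genes higher and lower were 49.2% and 29.4% in the former comparison, 16.2% and 24.8% in the latter. Eng (endoglin) stood at 88.8, 501 and 166 CPM, 5.64-fold higher in ZOL than in PBS (4.84 to 6.62) and 3.01-fold lower in ZOL+Ang2 than in ZOL (2.85 to 3.19). Acvrl1 (ALK1) had 374, 1426 and 1 reads, or 201, 90.8 and 0.114 CPM, and was 796.6-fold lower in ZOL+Ang2 than in ZOL (142.7 to 31486). Bambi, a decoy receptor, stood at 243, 28.0 and 57.9 CPM, and Acvr1c (ALK7, a receptor of activin-type ligands) at 75.3, 0.573 and 0.570 CPM. Acvr1c reached the mean of 10 CPM through PBS alone, so it had to count as lower in ZOL than in PBS. Bmpr1a, a type I receptor of bone morphogenetic proteins, stood at 2.15, 48.8 and 14.4 CPM. Set against the members, Eng per length was 167 times Tgfbr2 in PBS (45.5 to 1389), 7.86 times in ZOL (7.48 to 8.26) and 1.40 times in ZOL+Ang2 (1.31 to 1.50). Acvrl1 was 6.30 times Tgfbr1 in PBS (4.99 to 8.01), 15.7 times in ZOL (13.2 to 18.8) and 0.0115 times in ZOL+Ang2 (0.000289 to 0.0653). The endothelial markers, of which Eng is one, moved alongside: 13 of 16 were lower in ZOL+Ang2 than in ZOL and 0 higher, with a median of -1.57, and the part of cell content was not tested.

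The remaining SMADs divided between the libraries. Smad1 stood at 51.1, 31.9 and 2.05 CPM, and was 15.6-fold lower in ZOL+Ang2 than in ZOL (9.74 to 26.5), whereas Smad5, which acts beside it, stood at 21.5, 81.9 and 109.8 CPM. Per length, Smad2 was 0.616 times Smad1 in PBS (0.452 to 0.836), 4.49 times in ZOL (4.09 to 4.95) and 41.4 times in ZOL+Ang2 (26.0 to 70.1). Smad7, the inhibitory SMAD that TGF-beta induces, had 0, 518 and 0 reads, so like Tgfb3 it was seen in ZOL alone, and was at least 20.4-fold higher in ZOL than in PBS and at least 96.5-fold lower in ZOL+Ang2 than in ZOL. Over the 3 measured genes 2 were higher and 0 lower in ZOL than in PBS (median 1.71). In ZOL+Ang2 against ZOL 0 were higher and 2 lower (median -2.39). Smad7 reached the mean of 10 CPM through ZOL alone, so it had to count in both comparisons. Among all genes compared, 49.2% were higher and 29.4% lower in ZOL than in PBS, and 16.2% and 24.8% in ZOL+Ang2 than in ZOL. With median-of-ratios scaling Smad7 missed the mean of 10 CPM, and of the 2 genes left 0 were higher and 1 lower in ZOL than in PBS.

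Genes that turn over receptors and SMADs or repress their output gave 6 higher and 1 lower of 9 in ZOL than in PBS (median 1.47). Of all genes compared, 49.2% were higher and 29.4% lower there, with a median of 0.94. In ZOL+Ang2 against ZOL 2 of the 9 were higher and 2 lower (median -0.21), where 16.2% of all genes were higher and 24.8% lower (median -0.02). With median-of-ratios scaling 3 were higher and 1 lower in ZOL than in PBS. Smurf1, a ubiquitin ligase that works with Smad7, had 0, 1124 and 0 reads, or 71.6 CPM in ZOL, and was at least 44.4-fold higher than in PBS and at least 209-fold higher than in ZOL+Ang2. It reached the mean of 10 CPM through ZOL alone and so had to differ. Smurf2, its relative, stood at 12.4, 30.2 and 4.11 CPM, and was 7.36-fold lower in ZOL+Ang2 than in ZOL (5.24 to 10.6). Its difference from PBS to ZOL, 2.44-fold higher (1.61 to 3.89), changed direction with the deposited RPKM. Pmepa1, a TGF-beta-induced gene that limits SMAD activation, stood at 2.15, 72.0 and 139.6 CPM, and Ppm1a, a phosphatase that acts on SMADs, at 0.538, 75.4 and 64.7 CPM. Ski, a repressor of SMAD complexes, went the other way at 80.7, 34.5 and 90.2 CPM. Usp15, which removes ubiquitin from the receptor, was highest in ZOL+Ang2 at 12.4, 24.4 and 125.8 CPM.

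Genes known as TGF-beta targets were taken as a list of 28, of which 25 were measured. In ZOL against PBS 12 were higher and 5 lower, with a median of 0.99 against 0.94 over all genes; Id1, among the 12, changed direction with the deposited RPKM, on which 9 of 23 were higher and 7 lower. From ZOL to ZOL+Ang2, 8 were higher and 5 lower, with a median of 0.37 against -0.02. From PBS to ZOL+Ang2, 15 were higher and 2 lower, with a median of 1.69, or 2.60 with genes at 0 reads set to their bound, against 0.48; with RPKM 12 of 23 were higher and 5 lower. Among all genes compared, 49.2% were higher and 29.4% lower in ZOL than in PBS. These shares were 16.2% and 24.8% in ZOL+Ang2 against ZOL, and 44.2% and 33.1% in ZOL+Ang2 against PBS. Smad7 and Tgfb1i1 reached the mean of 10 CPM through ZOL alone. They therefore had to count as higher in ZOL than in PBS and lower in ZOL+Ang2 than in ZOL. Snai2, at 0, 1.15 and 29.8 CPM, reached the mean through ZOL+Ang2 alone and had to count as higher there. The list moved unevenly. Ccn2 (connective tissue growth factor) stood at 0, 73.8 and 559 CPM. Acta2 (smooth muscle actin) stood at 2.69, 669.6 and 107.6 CPM, and Tgfb1i1 at 0.538, 52.4 and 3.19 CPM. Vim (vimentin) stood at 30.1, 2441 and 1525 CPM. Transcription factors and adhesion genes of the list went both ways: Zeb1, named after its values were seen, stood at 0, 73.3 and 9.81 CPM, whereas Cdh2 (N-cadherin) stood at 52.2, 4.97 and 7.30 CPM, Zeb2 at 71.6, 11.5 and 85.1 CPM and Snai1 at 79.6, 30.4 and 30.8 CPM. The collagens Col1a1 (189, 53.5 and 4280.3 CPM) and Col1a2 (58.1, 93.9 and 3333 CPM) were highest in ZOL+Ang2. Of the 28 genes, 6 are also among the fibroblast or mural markers, and 8 of 9 measured fibroblast markers were higher in ZOL+Ang2 than in ZOL and 0 lower (median 2.89). Without those 6 genes, 4 of 20 were higher and 4 lower in ZOL+Ang2 than in ZOL (median 0.33), 11 of 20 higher and 4 lower in ZOL than in PBS (median 1.68), and 10 of 20 higher and 2 lower in ZOL+Ang2 than in PBS (median 1.25).

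Other ligands of the family and their antagonists were sparse, with 3 of 13 measured. Inhba, the subunit of activin A, which also signals through Smad2 and Smad3, stood at 108, 37.8 and 308 CPM, 2.86-fold lower in ZOL than in PBS (2.42 to 3.36) and 8.15-fold higher in ZOL+Ang2 than in ZOL (7.45 to 8.92). Bmp6 had reads in ZOL alone, at 31.3 CPM, and was at least 19.4-fold higher than in PBS and at least 91.4-fold higher than in ZOL+Ang2. Gdf11 had reads in PBS alone, at 31.8 CPM. Bmp4, at 0, 28.3 and 0 CPM, missed the mean of 10 CPM. Over the 3 measured genes the median log2 difference was -1.40 from PBS to ZOL (1 higher, 2 lower) and 0 from ZOL to ZOL+Ang2 (1 higher, 1 lower). Bmp6 and Gdf11 each reached the mean of 10 CPM through 1 library and so had to differ from it. Among all genes compared, 49.2% were higher and 29.4% lower in ZOL than in PBS. In ZOL+Ang2 against ZOL these shares were 16.2% and 24.8%. The counts and medians of this list therefore say nothing particular to it.

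**Figure D4:**
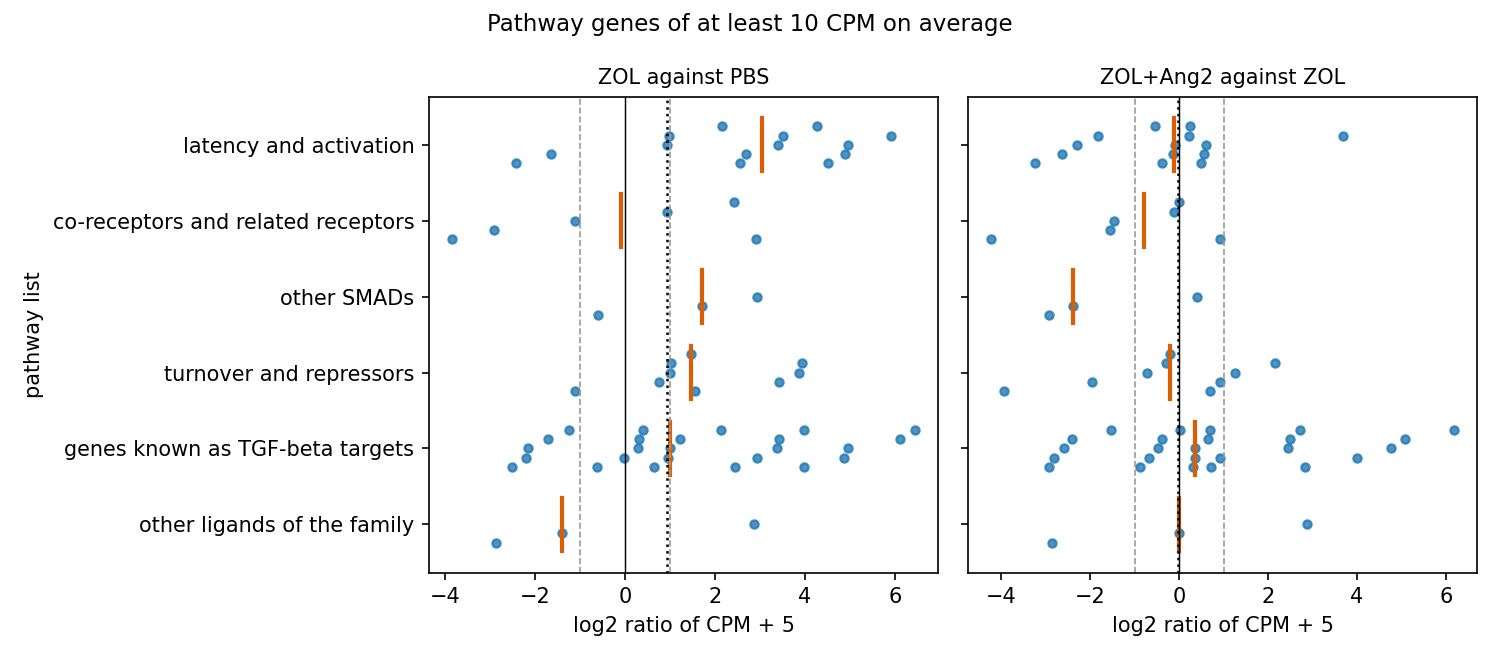
Log2 ratio of CPM plus 5 for each measured gene of 6 pathway lists, for ZOL against PBS (left) and ZOL+Ang2 against ZOL (right); orange bars are list medians, the dotted line the median of all genes compared, and dashed lines 2-fold. In ZOL against PBS the latency and activation list has its median at 3.04, while the target list's median of 0.99 lies on that of all genes.

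For each measured gene, those with the nearest pair of log2 differences (PBS to ZOL, and ZOL to ZOL+Ang2) were looked up among the 7567 genes whose mean reached 20 CPM, over 3 libraries. Tgfb3 had the fewest, with 8 genes within 0.25 on the log2 scale, led by Dnmbp, Mapkap1 and Ddx58. Its own mean of 17.0 CPM lies under the 20 CPM limit. Genes seen in ZOL alone at its level were thus left out, so the small number cannot be read as isolation. Tgfbr2 had 17, led by Fgfr1op2, Ppp2r5c and Cmtm3, and Tgfbr1 had 18, led by Fibp, Cfap43 and Ppfibp2. Tgfbr3 had 26, led by Fxr1, Tia1 and Rps6ka5. Smad2 had 35 (led by Polr2m), Smad4 had 47 (Arhgef25, Syde1 and Mxd1) and Smad3 had 84 (Foxo1, Pml and Gm19589). No TGF-beta gene was among the 3 nearest of another, and Tgfb3, being under the 20 CPM limit, could not be. With 3 libraries such likeness describes levels alone.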

How the data were processed

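RNA of sorted dural cells was measured in 3 libraries, grouped by the treatment label. Per the labels' protocols, total RNA was amplified as full-length complementary DNA with a single-cell kit and made into libraries with a TruePrep kit. HISAT2 2.2.1, featureCounts 2.0.6, fastp and the mm10 build were used, per the submitters' processing notes. The authors deposited RPKM values per gene, and their library total, the handling of mates and strandedness are, in the sources used here, not given. Exons of Tgfb2 (124 bases) and Tgfb3 (163 and 257 bases) overlap models on the other strand, and those of Tgfbr3 (297 bases) a model on the same strand, that had 0 to 10 reads.

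RPKM times the exon length in GENCODE release 21 for mouse was a whole multiple of 1 step per library, within 0.01, for 96.9% (PBS), 96.4% (ZOL) and 96.2% (ZOL+Ang2) of values above 0, and reads were recovered from it. For 37 genes there was no length. Of the 9 TGF-beta genes, 8 came out whole in each library, and Smad2 (81.65, 3157.1 and 1044.1) was rounded. Recovered totals were 1.50, 0.701 and 0.785 times those the steps imply, so the reads may not be the authors' counts. Even multiples were 61.0%, 53.2% and 51.0% of low values, so mates may have been counted singly. The 2 PBS reads of Tgfbr2, and those of Smad4, may then be 1 fragment, and intervals resting on such counts would be too narrow.

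CPM were made from these reads with TMM factors (1.11, 0.946 and 0.953, trims of 30% and 5%) in Python 3.11.15 with numpy 2.4.6, pandas 2.3.3 and scipy 1.17.1. Genes whose mean reached 10 CPM were compared by the log2 ratio of CPM plus 5, and named folds are ratios of CPM with exact 95% binomial intervals on both libraries' reads. With 0 reads the fold is a bound against 3 reads in that library. Amplified reads carry no molecular identifiers, so intervals and floors cover counting error only. With 1 library per group there is no test. The steps were tested on simulated libraries drawn from a shared profile, with the same exon lengths used to make and recover the reads. Such data cannot test the scaling where most genes differ, nor whether the exon lengths are those of the authors. Named genes are the 9 TGF-beta genes, gate genes, the 2 most abundant and the 2 highest and 2 lowest of each pathway list, the 2 most abundant markers of each other cell type and those at 0, and the 3 nearest patterns; for Smad2 the first alone is given, and the rest are not reported here. Genes outside this rule are named after their values were seen. Members and lists were chosen with earlier results of these data known. Promoter sequences are from RefSeq. Alternatives changed the scaling, the prior, the filter, the depth and the fold.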

Additional observations from a re-analysis of the deposited data

How the results depend on the processing

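No paired analysis was possible because each group had 1 library and the labels give no replicate numbers; for the same reason no replicate could be left out. Of 16 differences past 2-fold among the 9 TGF-beta genes, 5 had 0 reads in 1 library and could not turn. A change of prior could turn none. The other 11 kept their direction under 5 settings of scaling and depth (55 of 55 values), but most had little room to turn. Those of Tgfbr1 and Tgfbr3 were negative, and each setting moved them further below 0. With RPKM, Tgfbr2 still stood at log2 3.74 for ZOL and 4.77 for ZOL+Ang2, relative to PBS. Smad2 came nearest to turning, at 0.83 and 0.27 on the same scale. The result for these 11 was therefore largely fixed in advance. Counts of genes past 2-fold were small, so 18 of 66 alternative counts moved by over 1.5 times. In ZOL against PBS, 5 higher became 2 with a filter at 50 CPM, and 2 lower became 1 with that filter, 1 with a prior of 20 CPM and 0 at 4-fold. In ZOL+Ang2 against PBS, 4 higher became 2 with the 50 CPM filter, and 1 lower became 2 with median-of-ratios scaling, with deposited RPKM and at equal depth, and 0 with a prior of 20 CPM, at 4-fold and with the 50 CPM filter. In ZOL+Ang2 against ZOL, 1 higher became 2 with median-of-ratios scaling and with RPKM and 0 at 4-fold and with the 50 CPM filter, and 1 lower became 2 with a 1 CPM filter and without a filter and 0 with the 50 CPM filter. Higher filters tested fewer of the genes (3 at 50 CPM) and lower ones all 9. The cause of the other moves was not tested.

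Over all genes compared, the share higher among those past 2-fold in ZOL against PBS was 62.6%, and 47.3% with median-of-ratios scaling, 39.9% with RPKM and 51.0% at equal depth, while the median log2 difference was 0.94, -0.17, -0.83 and 0.08. In ZOL+Ang2 against PBS the shares were 57.1%, 46.0%, 39.0% and 48.5%. The size of any ratio against PBS therefore depends on the scaling. PBS had 1675532 reads, so differences under its floor of 1.61 CPM were not detectable there.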
